A study of Homo sapiens with 8 samples.

Results

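Expression and isoform usage of 6 enzymes of the pentose phosphate pathway were examined after knockdown (KD) of the splicing regulator PTBP1 in MOLM-13 cells, a human acute myeloid leukemia line. The enzymes were PGLS and PGD of the oxidative arm and RPIA, RPE, TKT and TALDO1 of the non-oxidative arm. They were taken by name: every row of the transcript count table whose identifier belongs to 1 of these genes in GENCODE version 44 was a member, which gave 55 annotated transcripts and 6 of the 62639 genes in the table. All 6 genes were among the 7597 genes with enough counts for a test, and 32 of the 55 transcripts had at least 1 count.

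The study compared 4 libraries of cells carrying a doxycycline (dox)-inducible hairpin against PTBP1 (shPTBP1, genotype PTBP1 KD) with 4 libraries of cells carrying a control hairpin (shSCR). Both groups were the same line with an integrated lentiviral vector and both received dox for 9 days, so dox is shared and no untreated cells enter the comparison. A single hairpin against PTBP1 was sequenced, and its effect cannot be told apart from that of the knockdown. RNA was read as long cDNA reads on a nanopore sequencer. The kits amplify cDNA by PCR, so several reads can come from 1 molecule.

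Depth was even across libraries, at 1528449 to 1613342 counts, so that 1 count was worth 0.620 to 0.654 CPM (counts scaled to 1000000 per library). PTBP1 itself had 10, 15, 13 and 23 counts after shPTBP1 and 65, 90, 64 and 78 after shSCR. It was called lower, with a wide gap between the groups (log2 fold change -2.26, SE 0.22, adjusted p = 7.18e-05, edgeR's quasi-likelihood test with Benjamini-Hochberg adjustment over 7597 genes). Of 8 markers of myeloid cells, 7 had a count in every library, and SPI1 had 1 count in all. Their summed level was 887 to 1032 CPM after shPTBP1 and 740 to 835 CPM after shSCR, and CD68 was called higher (log2 fold change 0.36, adjusted p = 0.0194, edgeR). The markers did not move as one. LYZ, CD33 and MPO had log2 fold changes of 0.33, 0.26 and 0.16 and were not called. ITGAM, low at 6.75 CPM after shPTBP1 and 12.3 CPM after shSCR, and CSF3R had -0.85 and -0.19 and were not called. FLT3, too low to test, had 3 to 6 counts in the shPTBP1 libraries and 6 to 12 in the shSCR libraries. Of 10 markers of other cell types, CD3E, HBB and MS4A1 were at 0, and 1, PECAM1, had a count in every library. The sum was 31.7 to 40.4 CPM after shPTBP1 and 33.3 to 39.0 CPM after shSCR. Most of it was PECAM1, with means of 33.4 and 34.5 CPM. Whether the shift in the myeloid markers takes part in any result below was not tested. In bulk RNA, fewer cells that express a gene and less RNA per cell cannot be told apart.

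The pentose phosphate pathway branches from glycolysis at glucose phosphate. Its oxidative arm makes NADPH, which cells spend on lipid synthesis and on keeping glutathione and thioredoxin reduced, and ends in ribulose phosphate. Its non-oxidative arm turns that sugar into ribose phosphate for nucleotides, or back into the glycolytic intermediates fructose phosphate and glyceraldehyde phosphate, and runs in either direction. Proliferating leukemia cells draw on both products.

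Among the 6 enzymes, 1 was called lower and 0 were called higher after PTBP1 KD, where 3.19% of all tested genes were called lower and 2.36% higher. The balance over all genes moved with the method, from 242 lower and 179 higher in edgeR to 154 and 164 in DESeq2 and 272 and 129 in limma-trend. The one that fell was PGLS, the lactonase of the oxidative arm, which fell by 44.8%. The other 5 had log2 fold changes between 0.00 and 0.08, and the widest of their 95% confidence intervals, that of RPE, ran from -0.21 to 0.21. The median over the 6 was 0.02, and over all tested genes -0.00. A single call among 6 genes is a result about that gene and not about the pathway.

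PGLS (ENSG00000130313, GRCh38 chr19:17511636-17521288, plus strand) encodes phosphogluconolactonase, which opens the lactone made in the oxidation of glucose phosphate and so hands phosphogluconate to PGD. Its counts were 102, 83, 98 and 150 in the 4 shPTBP1 libraries and 172, 232, 165 and 225 in the 4 shSCR libraries. As normalised CPM these were 64.5, 54.8, 64.5 and 96.0 against 106, 148, 110 and 144. The highest shPTBP1 library lay below the lowest shSCR library, a separation in that direction that 6.37% of all tested genes showed (12.7% in either direction).

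The means of PGLS were 69.98 ± 18.0 CPM (SD, n = 4) after shPTBP1 and 127 ± 22.2 CPM (SD, n = 4) after shSCR. The log2 fold change was -0.86 (SE 0.16, 95% confidence interval -1.20 to -0.51), a linear fold of 0.552 with an interval of 0.434 to 0.703 (adjusted p = 0.00926, edgeR's quasi-likelihood test). An exact two-sided permutation test over the 8 libraries gave p = 0.0286, the smallest that 4 against 4 can give. From the summed counts alone, 433 against 794, the depth-scaled ratio was 0.538 with a 95% interval of 0.477 to 0.606 that covers counting error only. Within the 242 genes called lower, PGLS ranked 57 by p, and 71 of the 242 had a log2 fold change at or below its own.

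The shPTBP1 library with the most PGLS, replicate 4, also had the most PTBP1, but the order did not hold in the others. PTBP1 was 6.33, 9.91, 8.56 and 14.7 CPM in replicates 1 to 4, and replicate 2, next in PTBP1, had the least PGLS. Leaving out replicate 4 moved the log2 fold change of PGLS to -1.05, and leaving out each of the 8 libraries in turn kept the call, with values from -1.05 to -0.76 and adjusted p-values (edgeR) of 0.0022 to 0.0442. A fit that removed the trend of fold change with transcript length and GC content gave the smallest fall, -0.72 (adjusted p = 0.013, edgeR). The main PGLS transcript has 1008 bases, and among the 674 tested genes whose main transcript has 800 to 1200 bases the median log2 fold change was 0.01, with 20 called lower and 23 higher.

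PGD (ENSG00000142657, GRCh38 chr1:10398592-10420511, plus strand) encodes phosphogluconate dehydrogenase, which takes the product of PGLS, releases carbon dioxide and yields NADPH. It measured 236, 237, 230 and 219 CPM after shPTBP1 and 228, 237, 226 and 223 CPM after shSCR. The groups overlapped through most of their range. The means were 231 ± 8.32 and 228 ± 6.07 CPM (SD, n = 4 each) and the log2 fold change was 0.01, with a 95% confidence interval of -0.12 to 0.15 (adjusted p = 0.935, edgeR). The intervals of PGLS and PGD, neighbouring steps of the oxidative arm, did not touch.

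RPIA (ENSG00000153574, GRCh38 chr2:88691673-88750929, plus strand) is the isomerase that makes ribose phosphate, the sugar of nucleotides. It measured 135, 125, 133 and 133 CPM after shPTBP1 and 104, 135, 126 and 131 CPM after shSCR, where replicate 1 was the low library. The log2 fold change was 0.08 (95% confidence interval -0.11 to 0.28, adjusted p = 0.671, edgeR).

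RPE (ENSG00000197713, GRCh38 chr2:210002565-210022260, plus strand) is the epimerase that makes xylulose phosphate from the same ribulose phosphate. Its values were 108, 89.2, 96.1 and 110.1 CPM after shPTBP1 and 112, 98.7, 103 and 88.5 CPM after shSCR. The groups covered almost the same range, and the log2 fold change was 0.00 (95% confidence interval -0.21 to 0.21, adjusted p = 1.00, edgeR).

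TKT (ENSG00000163931, GRCh38 chr3:53224712-53256052, minus strand) encodes transketolase, the thiamine-dependent enzyme that passes carbon units between sugar phosphates. It measured 488, 546, 533 and 525 CPM after shPTBP1 and 529, 493, 525 and 495 CPM after shSCR, with a log2 fold change of 0.03 (95% confidence interval -0.09 to 0.16, adjusted p = 0.818, edgeR). TALDO1 (ENSG00000177156, GRCh38 chr11:747415-765012, plus strand) encodes transaldolase, which acts beside TKT in the same set of transfers. It measured 426, 490.2, 456 and 476 CPM after shPTBP1 and 427, 430.4, 499 and 440 CPM after shSCR, with a log2 fold change of 0.04 (95% confidence interval -0.11 to 0.19, adjusted p = 0.816, edgeR). For both enzymes the groups overlapped, and the 8 libraries are compatible with a change anywhere within these intervals.

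**Figure D1:**
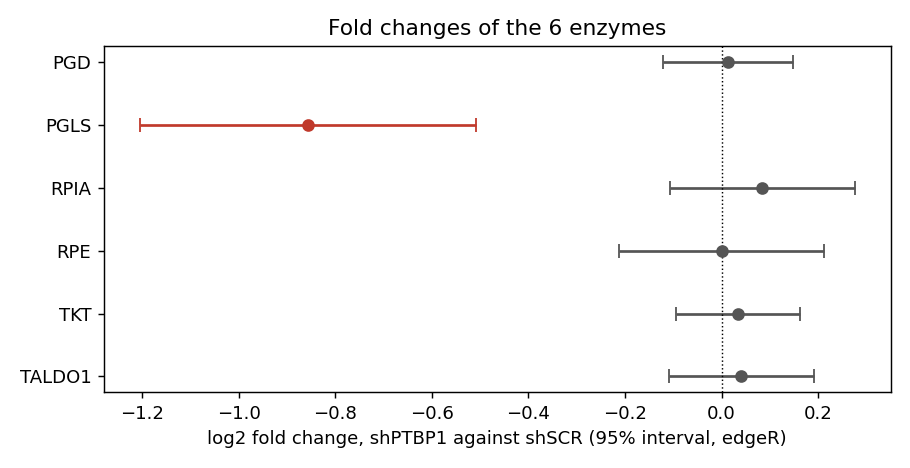
Log2 fold change (shPTBP1 over shSCR) of the 6 enzymes with 95% confidence intervals from edgeR, on a linear axis of log2 units with 0 marked. The interval of PGLS, -1.20 to -0.51, lies wholly below 0, and those of the other 5 enzymes include 0.

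The fall of PGLS could also be read within each library, as its ratio to another enzyme of the pathway, which does not depend on depth or scaling. The 5 ratios were computed after the gene's values had been seen, and they share the PGLS counts. PGLS to PGD was 0.231 to 0.439 after shPTBP1 and 0.464 to 0.648 after shSCR, a difference of -0.89 on the log2 scale. PGLS to RPIA was 0.439 to 0.725 against 0.873 to 1.10, a difference of -0.96. The differences for RPE, TKT and TALDO1 were -0.87, -0.91 and -0.92. None of the 5 ratios overlapped between groups, and each gave p = 0.0286 in an exact two-sided permutation test, unadjusted and the smallest possible. As single genes, 12.7% of all tested genes showed no overlap in either direction. PGLS alone already separated the groups and the other 5 enzymes were flat. The ratios therefore restate the fall of PGLS and add no support to it. Summed over the 6 enzymes the level was 1457 to 1558 CPM after shPTBP1 and 1506 to 1590 CPM after shSCR. PGLS supplied 3.56 to 6.16% of that sum after shPTBP1 and 6.92 to 9.58% after shSCR.

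In shSCR cells the order of the enzymes by CPM was TKT (511), TALDO1 (449), PGD (228), PGLS (127), RPIA (124) and RPE (101). The levels of PGLS and RPIA there did not differ beyond their spread, with ranges of 106 to 148 and 104 to 135 CPM. After shPTBP1 the order was the same apart from PGLS, which came last, with 69.98 ± 18.0 CPM below RPE at 100.7 ± 9.82 CPM. Their ranges overlapped only through shPTBP1 replicate 4 of PGLS. Divided by the length of each gene's main transcript, the shSCR levels in CPM per kilobase were 365 for TALDO1, 246 for TKT, 126 for PGLS, 101 for PGD, 68.4 for RPIA and 31.7 for RPE. On that scale PGLS moved from above PGD to 69.4 CPM per kilobase, below PGD at 102 and close to RPIA at 72.4. Counts of long reads need not grow with transcript length, and whether they do here was not tested. The order per kilobase is therefore not a better measure of level than the order by CPM.

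**Figure D2:**
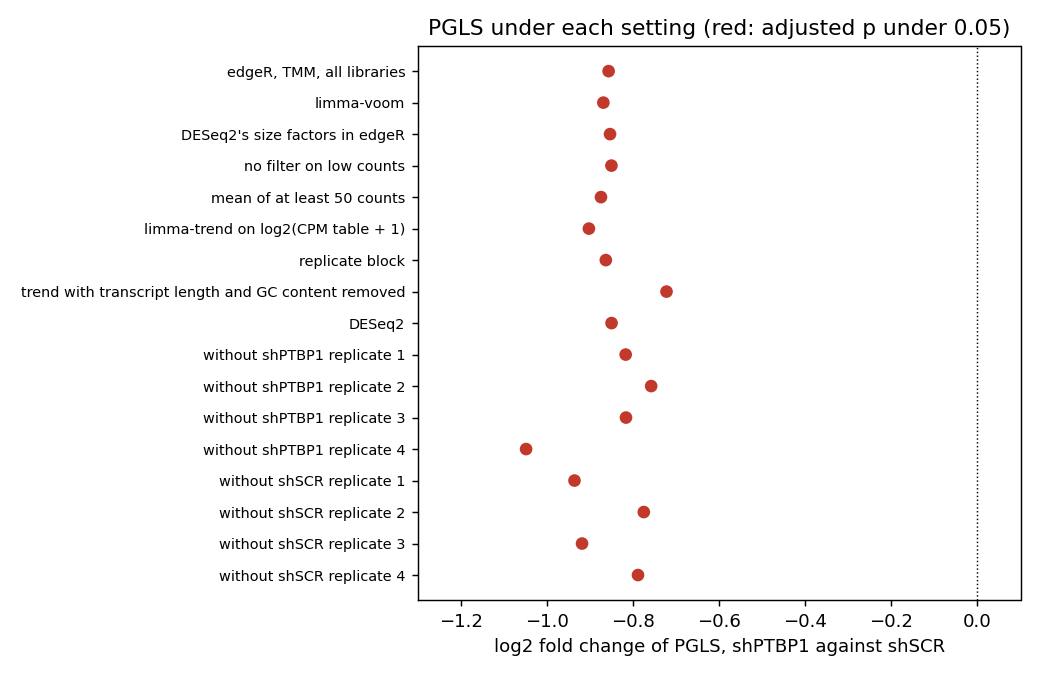
Log2 fold change of PGLS (horizontal axis, log2 units) in the reported fit and in each of the 16 alternatives, among them leaving out each library in turn. The points run from -1.05 to -0.72, all below 0 and all called at an adjusted p under 0.05.

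Isoform usage, the share of a gene's counts on each transcript, is the readout closest to splicing. PTBP1 is a repressor of exons that binds pyrimidine-rich stretches of RNA, often ahead of an exon. Usage was tested for the 8 transcripts with enough counts, 3 of RPE, 3 of TKT and 2 of TALDO1. None was called (edgeR's diffSpliceDGE, adjusted p under 0.05 and a change of at least 10 percentage points), and 0 of the 8 had an unadjusted p under 0.05 by that test. Over the series 61 of 5464 transcripts were called, or 1.12%. limma's diffSplice also called 0 of the 8.

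PGLS was in effect a gene with 1 isoform. PGLS-201 (ENST00000252603.7) took 99.7% ± 0.510 of its counts after shPTBP1 and 99.4% ± 0.536 after shSCR (SD, n = 4 each). PGLS-204, annotated as a retained intron, had 1 count after shPTBP1 and 4 after shSCR, and PGLS-206 had 0 and 1. The fall of PGLS was therefore a fall of PGLS-201. Transcripts outside the table were not analysed here.

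The last 40 bases of the 4 introns of PGLS-201 are shown because PTBP1 often binds there. Capitals mark TCTT and CTCTCT, letters of short pyrimidine motifs that PTBP1 can bind, searched on the transcript strand only and merged where they overlap (GRCh38, plus strand).
PGLS intron 1, chr19:17516133-17516172: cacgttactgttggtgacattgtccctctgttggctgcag
PGLS intron 2, chr19:17517248-17517287: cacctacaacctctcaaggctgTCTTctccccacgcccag
PGLS intron 3, chr19:17517670-17517709: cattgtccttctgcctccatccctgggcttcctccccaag
PGLS intron 4, chr19:17520904-17520943: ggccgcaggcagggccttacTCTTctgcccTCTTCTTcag

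A motif was present in 2 of the 4 PGLS introns, introns 2 and 4, against 38920 of 75129 introns (51.8%) of the transcripts that GENCODE tags as canonical, over all tested genes. TCTT alone was in 49.4% of those introns and CTCTCT in 5.57%. Over the 6 enzymes 29 of 49 introns (59.2%) held a motif, with RPIA at 7 of 8, PGD at 7 of 12, RPE at 3 of 5, TKT at 7 of 13 and TALDO1 at 3 of 7. For TKT and TALDO1 the canonical transcripts are TKT-207 and TALDO1-201, which are not the most counted ones. A match is a description of these letters and says nothing of binding.

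PGD and RPIA also had a single main isoform. PGD-201 (ENST00000270776.13) held 99.6% ± 0.362 of PGD counts after shPTBP1 and 99.9% ± 0.135 after shSCR, and RPIA has 1 annotated transcript. The other 3 enzymes used several transcripts.

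RPE had 3 transcripts above 5% of its counts. RPE-202 (ENST00000359429.11) held 43.8% ± 3.07 after shPTBP1 and 46.3% ± 4.11 after shSCR, RPE-206 (ENST00000429921.5) 30.6% ± 5.48 and 30.2% ± 3.06, and RPE-207 (ENST00000435437.2) 18.3% ± 1.94 and 19.8% ± 0.858 (SD, n = 4 each). The exact permutation test for RPE-202 gave p = 0.371. Where RPE-202 has a coding exon of 80 bases (chr2:210009657-210009736), RPE-206 has a 31-base exon in the 5′ region, and RPE-206 also includes a 54-base exon. The 80-base exon was in 62.9% ± 3.87 of RPE counts after shPTBP1 and 68.0% ± 3.84 after shSCR (exact permutation p = 0.114), the 54-base exon in 35.3% ± 3.15 and 31.6% ± 3.37 (exact permutation p = 0.171). Neither difference passed 0.05.

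The start of the last exon is shown because it tells RPE-202 from RPE-207 (GRCh38, plus strand). Capitals mark the 4 bases that RPE-202 has there and RPE-207 does not.
RPE last exon start, chr2:210019649-210019692: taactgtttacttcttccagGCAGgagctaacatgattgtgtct

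RPE-207 also ends 2299 bases before RPE-202, so its share does not separate the 4-base choice from the choice of end. A minor transcript with the 54-base exon, RPE-216 (ENST00000454822.5), had 6, 3, 8 and 13 counts after shPTBP1 and 4, 0, 3 and 0 after shSCR. Its share was 4.70% ± 2.33 against 1.03% ± 1.19, and the groups lay apart by a hair, 2.22% in the lowest shPTBP1 library and 2.19% in the highest shSCR library. It was named after its values were seen, it was 1 of 31 transcript shares compared by an exact permutation test (p = 0.0286, unadjusted), and its counts were too low for the edgeR test, so it is a value at the edge of what this depth can show.

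TKT-201 (ENST00000423516.5) held 89.5% ± 0.638 of TKT counts after shPTBP1 and 88.8% ± 1.81 after shSCR (SD, n = 4 each, exact permutation p = 0.543). TKT-207 held 7.69% ± 0.973 and 7.79% ± 0.912, and TKT-202 1.80% ± 1.02 and 2.42% ± 0.792. Of these 3, TKT-201 alone carries a 24-base exon, and it ends 945 bases before TKT-207, so the exon and the end cannot be told apart. The 24 bases occur 51759 times on chromosomes 1 to 22, X and Y, both strands counted. The share of TKT-201 is a share of assigned counts, and whether those reads hold the exon was not tested.

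The share of TKT-201 ran over all libraries from 86.5% to 90.4%. TKT transcripts with the farther end of TKT-207 or TKT-202 made up 9.48% ± 0.277 after shPTBP1 and 10.2% ± 1.61 after shSCR (exact permutation p = 0.514).

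TALDO1-203 (ENST00000528097.5) held 82.9% ± 0.758 of TALDO1 counts after shPTBP1 and 81.4% ± 1.56 after shSCR, and TALDO1-201 (ENST00000319006.8) 16.4% ± 0.602 and 18.1% ± 1.58 (SD, n = 4 each). Exact permutation tests gave p = 0.0857 and p = 0.0571. TALDO1-201 starts 36 bases after TALDO1-203 and its exon 6 ends 4 bases later, at the capitals in the sequence given here (GRCh38, plus strand).
TALDO1 exon 6 end, chr11:763921-763960: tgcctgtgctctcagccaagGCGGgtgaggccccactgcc

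How far these 4 bases of TALDO1, the 4 bases that RPE-207 lacks or the 24-base exon of TKT set the assignment of reads was not tested.

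**Figure D3:**
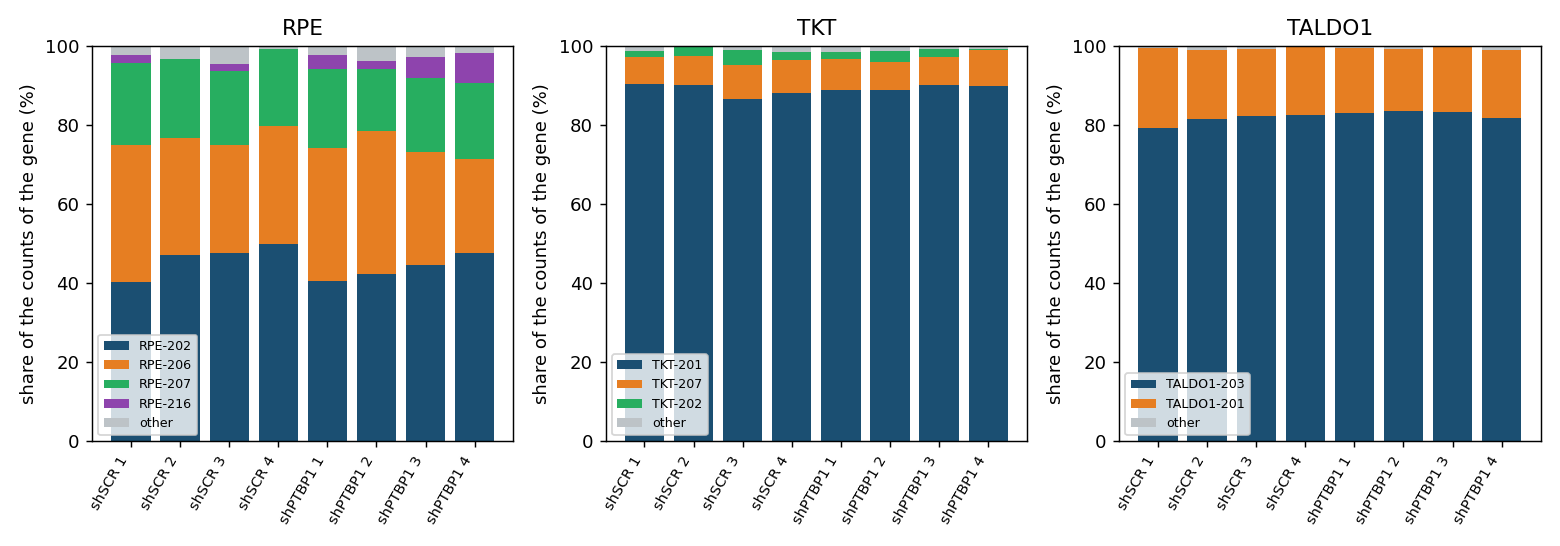
Share of the counts of RPE, TKT and TALDO1 (percent, stacked bars from 0 to 100) on each named transcript, 1 bar per library, with the 4 shSCR libraries to the left of the 4 shPTBP1 libraries; grey is all other transcripts. TKT-201 fills 86.5 to 90.4% of every TKT bar, and the thin RPE-216 band averages 4.70% after shPTBP1 and 1.03% after shSCR.

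The other genes of the pathway and of the routes around it were read from lists. Of 15 other enzymes of pentose phosphate metabolism 9 were tested. By edgeR, DESeq2 or limma-voom 0 were called in either direction, with 0 at an unadjusted p under 0.05 in edgeR. Among all 7597 tested genes edgeR called 242 lower and 179 higher, and 1459 had an unadjusted p under 0.05. The 9 enzymes included the phosphoribosyl pyrophosphate synthetases PRPS1 and PRPS2 (log2 fold changes 0.06 and -0.02), which use the ribose phosphate that RPIA makes. The median over the 9 was 0.02. The transketolase-like genes TKTL1 and TKTL2 had 0 counts in all 8 libraries.

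Of 15 glycolytic enzymes that share intermediates with the pathway 9 were tested, and 5 were called lower (GPI, ALDOC, PFKL, HK1 and HK2) and 0 higher, with a median log2 fold change of -0.42. Over all tested genes 3.19% were called lower and 2.36% higher. Among them GPI, the isomerase that joins glucose phosphate to the fructose phosphate returned by TKT and TALDO1, measured 132 ± 14.5 and 176 ± 10.7 CPM (log2 fold change -0.42, adjusted p = 0.0152, edgeR). In edgeR 7 of the 9 had an unadjusted p under 0.05, as did 1459 of all 7597 tested genes. Besides the 5 called genes these were PFKP (log2 fold change -0.33, adjusted p = 0.0578, edgeR) and ALDOA (-0.17, adjusted p = 0.112, edgeR). GAPDH, which like ALDOA acts on a triose phosphate, and TPI1 had log2 fold changes of -0.04 and -0.07 and were not called. HK1 and PFKL were no longer called when the trend with transcript length and GC content was removed, with log2 fold changes of -0.40 and -0.32 in place of -0.51 for each (adjusted p = 0.0644 and 0.0761, edgeR). Leaving out 1 library also ended calls. HK1 was lost without shPTBP1 replicate 2, 3 or 4 or shSCR replicate 1, 2 or 3 (adjusted p = 0.0725 to 0.113, edgeR), and PFKL without shPTBP1 replicate 2, 3 or 4 or shSCR replicate 2 or 4 (0.0561 to 0.0887). GPI was lost without shPTBP1 replicate 3 or 4 or shSCR replicate 4 (0.0537 to 0.0585), ALDOC without the same libraries (0.056 to 0.0619), and HK2 without shPTBP1 replicate 2 or 3 (0.0511 and 0.0599).

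NADPH-forming enzymes of other routes (8 tested of 13) and NADPH-using redox enzymes (10 of 12) had 0 genes called by edgeR, DESeq2 or limma-voom. In edgeR 2 and 0 of them had an unadjusted p under 0.05, as did 1459 of all 7597 tested genes. Of all tested genes edgeR called 3.19% lower and 2.36% higher. The 2 with a low unadjusted p were the malic enzyme ME2 (log2 fold change -0.37) and the mitochondrial kinase NADK2 (-0.40). ME2 works mainly with NAD, and NADK2 makes NADP and not NADPH itself. Neither value is therefore read as a change in NADPH formation. IDH1, TXNRD1 and GSR had log2 fold changes of 0.08, 0.03 and -0.10.

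Of 7 users of phosphoribosyl pyrophosphate, all tested, 1 was called lower and 0 higher, again against 3.19% and 2.36% of all tested genes. It was NAPRT, which makes NAD precursors from nicotinic acid, at 16.1 ± 5.47 CPM after shPTBP1 and 38.9 ± 14.6 CPM after shSCR (SD, n = 4 each, log2 fold change -1.27, SE 0.29, adjusted p = 0.0215, edgeR). The purine enzymes PPAT and APRT had log2 fold changes of 0.19 and 0.18 and were not called. In edgeR 4 of the 7 had an unadjusted p under 0.05, as did 1459 of all 7597 tested genes. The 4 were NAPRT, APRT, QPRT (log2 fold change -0.28) and HPRT1 (0.14), of which NAPRT alone was called. NAPRT was no longer called without shPTBP1 replicate 1, 2 or 3 or shSCR replicate 2 or 4 (adjusted p = 0.0542 to 0.0751, edgeR).

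Of 14 genes that the antioxidant factor NRF2 is known to activate 8 were tested, 2 were called lower and 1 higher, against 3.19% and 2.36% of all tested genes. TXN, the thioredoxin that NADPH keeps reduced through TXNRD1, measured 196 ± 17.1 and 379 ± 48.4 CPM (log2 fold change -0.95, SE 0.10, adjusted p = 9.36e-05, edgeR) and was called in all 16 alternatives. FTH1, the ferritin heavy chain, measured 498 ± 179 and 1006 ± 239 CPM (log2 fold change -1.01, adjusted p = 0.0152, edgeR), while its light chain partner FTL was called higher, by 0.27 on the log2 scale (adjusted p = 0.0373, edgeR). FTH1 was lost without shPTBP1 replicate 2 or 3 or shSCR replicate 4 (adjusted p = 0.0512 to 0.059, edgeR), and FTL without shPTBP1 replicate 2, 3 or 4 or shSCR replicate 1, 2 or 4 (0.0598 to 0.129). NQO1 and TXNRD1, both of this list, had log2 fold changes of -0.01 and 0.03, and the list's median was -0.00.

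Genes beside PGLS on chromosome 19 were also read. Of 13 tested genes within 500 kb, 1 was called lower, MAP1S, and the median log2 fold change was -0.12. Around TALDO1 1 of 14 was called lower, IFITM3, and none of the 6, 4 and 1 tested genes around PGD, TKT and RPE was called by edgeR. The shares called over all tested genes were 3.19% lower and 2.36% higher, with a median log2 fold change of -0.00. PGLS-DT, which overlaps PGLS on the opposite strand, had 29 counts in each group, and whether counting used strand is not given in the sources used here. KANSL1L, which overlaps the end of RPE, had 6 counts after shPTBP1 and 8 after shSCR. All 8 annotated pseudogenes that carry a member's name (PGDP1, RPIAP1 and RPEP1 to RPEP6) had 0 counts.

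The genes whose levels followed each enzyme most closely over the 8 libraries were found by the root mean square difference of centred log2 CPM. For PGLS CAMK2D, a calcium-dependent kinase, was the nearest (0.104), at 4.36 CPM after shPTBP1 and 9.27 CPM after shSCR (log2 fold change -1.07, adjusted p = 0.0831, edgeR, not called). For the flat members the distances were smaller, from 0.028 (TALDO1 and NEDD8) to 0.052 (RPE and ZNF521). The nearest genes were TARS1 and HADH for PGD, CCT6A and NMD3 for RPIA, COG4 for RPE, DDX49 and NACA for TKT, and ATP5PD for TALDO1.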

How the data were processed

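Total RNA of 8 cultures of MOLM-13 cells (4 per group, biological replicates per the labels) was read as nanopore cDNA libraries. The authors aligned reads to hg38 with minimap2, kept those with a mapping quality over 50 and counted transcripts with StringTie; versions are not given in the sources used here. The deposited table of counts holds whole reads per transcript. The other deposited table is named for TPM, but its values are CPM, equal to the counts scaled to 1000000 per library within 1e-06, and it served 1 alternative. Of 254070 transcripts 252562 were in GENCODE version 44; the rest held 0.0876 to 0.115% of counts.

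Counts were summed per gene. edgeR 4.0.16 (R 4.3.3) was run with TMM scaling, filterByExpr at a minimum count of 10 and the quasi-likelihood test on all 7597 genes passing, with a threshold of 0.05 on Benjamini-Hochberg adjusted p. Values printed as CPM are TMM-scaled, apart from the summed levels of markers and the CPM worth of 1 count, which use the total counts. Isoform usage was tested with diffSpliceDGE over 5464 transcripts. Shares of counts and single values were compared by exact two-sided permutation over 70 splits (scipy 1.17.1). Intervals on summed counts cover counting error only. limma 3.58.1 and DESeq2 1.42.0 (an adjusted p left as NA stays NA) gave alternatives. Scripts were tested on simulated counts. Sequences came from the GRCh38 genome with GENCODE coordinates; no protein sequence is shown.

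Named genes are the 6 enzymes, their transcripts above 5% of counts, called genes of the lists, PTBP1, the 2 genes most alike each member, and overlapping genes and pseudogenes. Other genes named beside these illustrate a list's uncalled members and were picked after their values were seen. A gene and some sequences are not reported here. Members and lists were chosen with earlier results of these data known. Samples sharing a replicate number did not deviate together, so no pairing was used.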

Additional observations from a re-analysis of the deposited data

Results flagged for a closer look

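Of 44 sets of 4 libraries examined for a single library far from the others by Dixon's test, 5 had one, where chance gives about 1 in 20. The share of PGD-201 was 99.7% in shSCR replicate 1, where the other 3 shSCR libraries had no other PGD transcript, a difference of 1 count. The share of PGLS-201 was 99.0% in shPTBP1 replicate 3, again by 1 count. The other 3 were in shSCR replicate 1 and concerned 2 genes. In that library TALDO1-201 held 20.4% of TALDO1 counts, the 80-base exon was in 62.3% of RPE counts and the 54-base exon in 36.6% of RPE counts. The last 2 mirror each other and are not independent. RPE-202 and RPE-207 carry the 80-base exon and not the 54-base exon, and RPE-206 the reverse. The values of shSCR replicate 1 for these RPE exons lie among those of the shPTBP1 libraries.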

How the results depend on the processing

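PGLS was called lower in all 16 alternatives, 8 with every library and 8 with 1 library left out, with log2 fold changes of -1.05 to -0.72, and it was the single pentose phosphate enzyme called in each. PTBP1 was called in the 15 that tested it (-2.51 to -2.09). All genes called numbered 421, 184 to 358 with 1 library left out and 318 to 495 otherwise, with more genes lower than higher except in DESeq2 (154 lower, 164 higher). Listed genes called numbered 9, 1 to 9 with 1 library left out and 8 to 11 otherwise, and without shPTBP1 replicate 3 TXN alone was left.

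Signs near 0 turned without a call. PGD had -0.0041 with a mean of at least 50 counts, -0.024 with limma-trend and -0.00011 to 0.038 with 1 library left out. RPE had -0.018, -0.038 and, with length and GC content removed (chosen after seeing the data), -0.0704, and -0.056 to 0.059 with 1 library left out. TKT had -0.0040 with limma-trend. The TKT-201 share differed by -0.127 to 1.15 percentage points with 1 library left out. No isoform of the enzymes was called in the 13 alternatives. By CPM per kilobase 2 of the 6 enzymes kept their rank. The causes were not tested.

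Samples sharing a replicate number correlated at -0.0328 to 0.00889 in their deviations from the group means, so no pairing was read from the number. A correlation over all tested genes can miss a small shared effect. With a replicate block 323 genes were called, PGLS at -0.86 among them, and FTL was not (adjusted p = 0.0596, edgeR).

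Depth limits the isoforms. A single count is 0.620 to 0.654 CPM, usage was tested for 8 of the 32 counted transcripts, and a count of 0 allows up to 3 counts per library (counting error only).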

Other observations

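H6PD, which carries out the opening steps of the oxidative arm inside the endoplasmic reticulum, differed widely between replicates. It measured 51.2, 7.27, 32.3 and 48.7 CPM after shPTBP1 and 55.3, 0, 12.7 and 0 CPM after shSCR (log2 fold change 1.02, SE 0.80, adjusted p = 0.547, edgeR). Libraries at 0 and at over 50 CPM stood in the same group, so no direction is read from it.

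Some genes that are usually abundant had few counts. TPI1, the triose phosphate isomerase of glycolysis, measured 13.1 ± 2.55 CPM after shPTBP1 and 13.7 ± 2.76 CPM after shSCR, where GAPDH, the next enzyme of that route, measured 11245 ± 763 and 11599 ± 239 CPM. The main transcripts of the 2 genes have 1460 and 1285 bases. SPI1, a defining transcription factor of myeloid cells, had 1 count in all 8 libraries. Levels compared between genes in this table, the order of the 6 enzymes included, rest on how reads were assigned to transcripts, which was not tested.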
